A study of Mus musculus with 4 samples.

Results

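Proteoglycans are proteins that carry sulfated sugar chains, the glycosaminoglycans, and 40 genes of proteoglycan core proteins and of enzymes that build, sulfate or degrade these chains were followed in glomerular RNA of *Gak*-KO and control mice. A gene was measured when a probe set carried its symbol and no other, and where several did, the probe set with the highest mean of the 4 arrays was used. This gave 38 of the 40 genes, among 22180 genes measured in the same way. *Ndst1* was not analysed here, and *Hyal1* was left out because its probe sets also carry the symbol *Naa80*.

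Heparan sulfate chains on perlecan and agrin give the glomerular basement membrane much of its negative charge, and syndecans and glypicans carry such chains on cell surfaces. The chains are polymerized in the Golgi apparatus by exostosins, then modified by *N*-deacetylase/*N*-sulfotransferases, an epimerase and *O*-sulfotransferases, and can be edited outside the cell by sulfatases and heparanase. Biglycan and decorin, which usually carry chondroitin or dermatan sulfate, belong to another family, the small leucine-rich proteoglycans of the matrix. Hyaluronan has no core protein and is made at the plasma membrane by hyaluronan synthases.

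*Gak* encodes cyclin G associated kinase, a protein that takes part in the uncoating of clathrin-coated vesicles. The Gak-KO mice were homozygous for floxed *Gak* (Gak fl/fl) and carried a Cre transgene driven in podocytes (Pod-Cre) together with a floxed diphtheria toxin receptor allele (Rosa-Dtr fl), and the controls were Cre-negative littermates with floxed *Gak*. Whether the controls carried the receptor allele is not given in the sources used here, and the Gak-KO mice differed from the controls by Cre as well as by the deletion. All were C57BL/6 by the labels and 3 weeks old by the labels and the methods, whereas the legend of a heatmap in the study gives an older age. Each of the 4 arrays, 2 per group, held glomeruli pooled from 3 mice by the labels, and the arrays of each group were numbered 1 (labelled male) and 2 (labelled female). Whole glomeruli were collected by bead perfusion and density centrifugation, and the RNA therefore came from podocytes, in which the gene was deleted, and from all other cells of the preparation.

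The values are log2 signals, and the median over all probe sets ranged from 4.13 to 4.32 over the 4 arrays. *Gak* itself was not lower on the arrays labelled Gak-KO. Its controls were at log2 signals of 8.25 and 8.35, Gak-KO 1 at 8.64 and Gak-KO 2 at 8.39, a mean change of 0.22 ± 0.14 (SE). Since the deletion was limited to podocytes and the position of the probes relative to the deleted exons was not analysed here, this check neither bears out nor contradicts the genotype labels. The sex labels were not borne out. *Xist*, which is expressed from the inactive X, had signals of 9.69 (control 1) and 9.61 (Gak-KO 1) where the label is male, but only 8.55 and 9.21 where it is female. The Y-linked *Uty* had signals of 4.65 and 5.59 under the male label, and higher or similar ones of 6.00 and 5.57 under the female label. The podocyte genes *Nphs1* (nephrin) and *Wt1* were measured at log2 signals of 8.0 to 9.0 and 7.37 to 8.73.

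*Bgn*, the gene of biglycan, was the only member to pass the criterion described next, and the 250 bases upstream of its RefSeq transcription start are shown to give its genomic context. The sequence is on the plus strand of the X chromosome, chrX:73483351-73483600 in build GRCm38.p6, and capitals mark matches to the GC box GGGCGG, which here lie on the opposite strand.

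Bgn promoter: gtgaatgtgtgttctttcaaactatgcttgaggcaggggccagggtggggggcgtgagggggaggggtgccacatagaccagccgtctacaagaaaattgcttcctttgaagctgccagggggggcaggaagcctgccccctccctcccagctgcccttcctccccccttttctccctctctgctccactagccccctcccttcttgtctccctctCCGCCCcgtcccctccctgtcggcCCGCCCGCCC

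The window held 3 GC box matches, of which 2 overlap, and its GC content was 64.4%, against a median of 52.4% over 32851 RefSeq promoter windows of the same length. A GC box on either strand was found in 32.7% of those windows. Neither the TATA box TATAAA, present in 12.4% of windows on either strand, nor the AP-1 motif TGANTCA, present in 6.75%, was matched in the *Bgn* window. These matches describe the letters of the window, and binding was not measured.

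Each Gak-KO array was compared with the control array of its own number, which gave pair 1 and pair 2. Genes counted as called if both pairs had a *Z*-ratio past the limit set by the study's methods, about 2.0, with the same sign. The *Z*-ratio is the difference of the *z* scores of a gene on 2 arrays divided by the SD of that difference over all genes, and the limit corresponded to a log2 change of about 0.59 in pair 1 and 0.48 in pair 2. *Bgn* was called higher, which is 1 of 38 members (2.63%), against 0.509% of all genes called higher. The study's own supplementary list of differentially expressed genes, which prints a *Z*-ratio for each of 2 batches, does not include *Bgn*. No member was called lower, against 0.234% of all genes, and 2 members, *Sulf2* and *Hs6st2*, were beyond the limit in 1 pair only (5.26%), against 9.18% of all genes. With limma, blocked on the pair, 0 members had an adjusted p under 0.05 after Benjamini-Hochberg adjustment over all genes, as did 0% of all genes. At an unadjusted p under 0.05 limma gave 2 members, *Bgn* and *Sulf1* (5.26%, against 5.43% of all genes). With 2 arrays per group, an exact permutation test that ignores the pairing could not give a two-sided p below 0.333.

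Most members moved little. Of the 38, 31 had a mean change of the 2 pairs within 0.2 of 0 on the log2 scale, and 34 changed by under 0.5 in each pair. The median size of the mean change was 0.10 among members and 0.11 among all genes. In direction, 12 members were higher in both pairs (31.6%, against 22.3% of all genes), 5 were lower in both (13.2%, against 24.3%), 16 moved in opposite directions (42.1%, against 39.7%), and 5 were exactly equal in 1 pair (13.2%, against 13.6%). The median change of the members was 0.03 in pair 1, 0.04 in pair 2 and 0.07 for the mean, whereas that of all genes was 0.00, 0.00 and -0.01. Both Gak-KO arrays lay above both controls for 4 members, *Bgn*, *Dcn*, *Sdc3* and *Sdc4* (10.5%, against 8.8% of all genes), and below both for 0 members, against 8.22% of all genes.

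**Figure D1:**
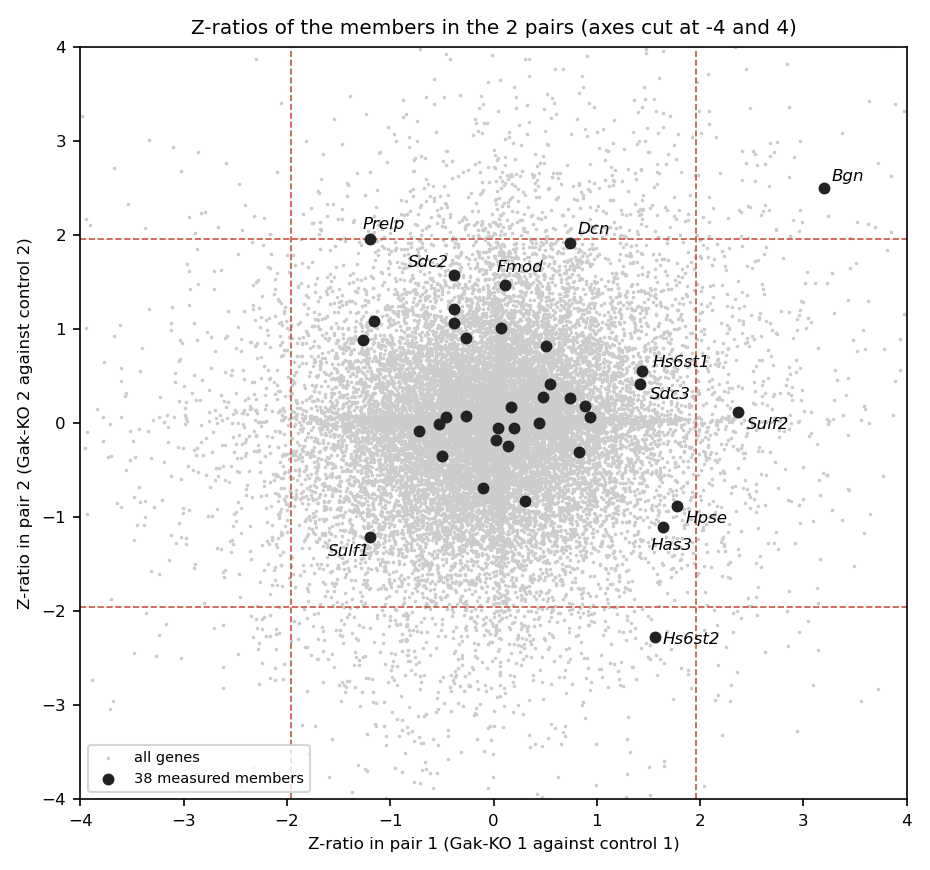
*Z*-ratios of the 38 members (dark points, some labelled by name) and of all genes (background) in pair 1 (x axis) and pair 2 (y axis), with the limit drawn as dashed lines and the axes cut at -4 and 4. *Bgn*, at 3.20 and 2.50, is the member beyond the limit in both pairs, *Sulf2* passes it in pair 1 and *Hs6st2*, downward, in pair 2.

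Among the members, the heparan sulfate proteoglycans of the basement membrane are perlecan and agrin, and both had higher signals on the Gak-KO array of each pair. Neither was called. Perlecan (*Hspg2*), a large secreted core protein, had log2 signals of 8.15 and 9.15 on the controls and 8.44 and 9.22 on Gak-KO 1 and 2, a mean change of 0.18 ± 0.11 (SE). Agrin (*Agrn*), the major such core protein of the mature glomerular basement membrane, was at 8.40 and 8.28 on the controls, against 8.65 and 8.36 on the Gak-KO arrays, a mean change of 0.17 ± 0.11 (SE). For both genes the 2 groups overlapped. The controls differed from each other by 1.01 for *Hspg2*, which is over the change of either pair. Collagen XVIII (*Col18a1*), another such core protein that was counted with the other genes of the pathway, changed by 0.22 in pair 1 and -0.02 in pair 2.

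Of the 4 syndecans, the transmembrane core proteins, *Sdc3* and *Sdc4* were higher in both pairs without overlap of the groups, and none was called. *Sdc3* was at 7.07 and 7.23 on the controls, against 7.51 and 7.34 on the Gak-KO arrays, with *Z*-ratios of 1.42 and 0.41 and a mean change of 0.28 ± 0.13 (SE). *Sdc4*, which is found at focal adhesions, had the steadier change of the 2 genes. It was at 10.93 and 11.03 on the controls, against 11.13 and 11.26 on the Gak-KO arrays, with changes of 0.20 and 0.23 and a mean of 0.22 ± 0.10 (SE). *Sdc2* changed by -0.10 in pair 1 and 0.40 in pair 2, and *Sdc1* by 0.13 in pair 1 and not at all in pair 2, where the 2 arrays hold the same value. The median of the mean changes of the 4 genes was 0.18.

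The glypicans, which are held in the membrane by a lipid anchor, showed no common direction, and their median mean change was -0.02. *Gpc1* was higher in both pairs (mean 0.12), although its second probe set, of lower signal, was lower in both (mean -0.21). *Gpc2*, *Gpc3* and *Gpc6* moved in opposite directions. *Gpc4* was lower in both, at 9.02 and 8.84 on the controls, against 8.90 and 8.77 on the Gak-KO arrays, with a mean change of -0.09 ± 0.10 (SE). This difference was smaller than the gap between the 2 controls, and the groups overlapped. The widest split was that of *Gpc3*, which was at 8.20 and 8.0 on the controls, against 7.84 and 8.23 on the Gak-KO arrays. Its changes of -0.36 and 0.23 gave a mean of -0.07 ± 0.19 (SE). *Gpc2* and *Gpc6* had mean changes of -0.02 and 0.09.

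**Figure D2:**
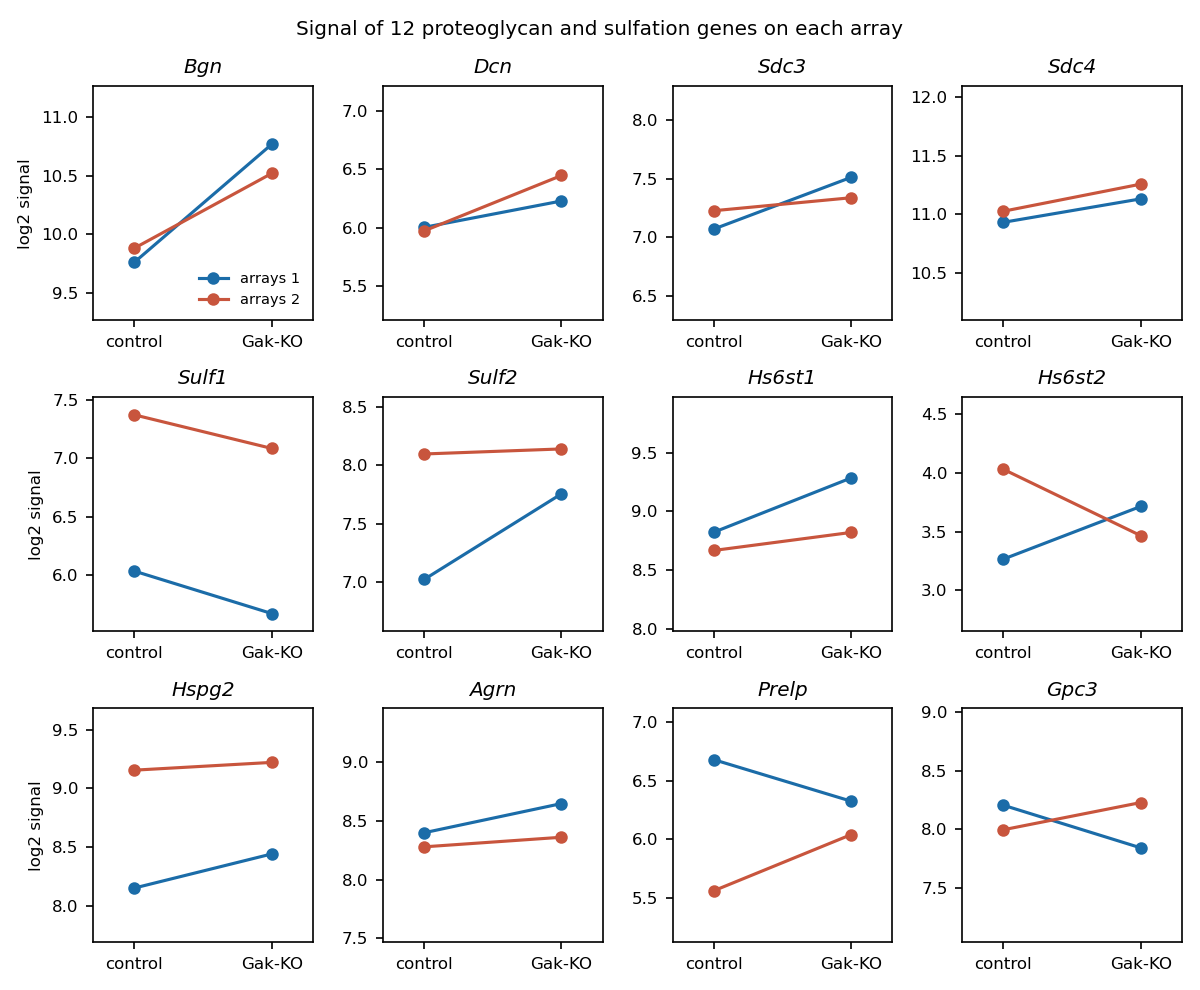
Log2 RMA signals (y axis) of 12 members on each array, with a line from the control to the Gak-KO array of the same number for pair 1 and pair 2. Both lines climb for *Bgn*, from 9.76 to 10.77 and from 9.88 to 10.52, and the controls of *Sulf1* and *Sulf2* lie further apart than either pair of arrays of the same number.

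The enzymes that polymerize heparan sulfate chains stayed near their control signals. *Ext1* and *Ext2* encode the copolymerase and had mean changes of 0.11 ± 0.13 and 0.08 ± 0.13 (SE), each with opposite signs in the 2 pairs. *Extl3*, which starts the chain, had a mean change of 0.04 and *Extl1* one of 0.06. *Extl2* was lower in both pairs, at 6.49 and 6.40 on the controls, against 6.47 and 6.24 on the Gak-KO arrays, with a mean change of -0.09 ± 0.10 (SE), and the groups overlapped. The median mean change over these 5 genes was 0.06, and none was called. The *N*-deacetylase/*N*-sulfotransferases, which prepare the chain for the later sulfations, were represented by 3 of 4 genes. *Ndst2* had a mean change of -0.08 and *Ndst3* one of 0.03. *Ndst4*, with signals under the 30th percentile of all genes, was at 3.00 and 2.67 on the controls, against 2.83 and 2.67 on the Gak-KO arrays, and its mean change was -0.08 ± 0.11 (SE). Both *Ndst2* and *Ndst4* were exactly equal in pair 2.

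Among the *O*-sulfotransferases and the epimerase, *Hs6st1* had the largest mean change. This 6-*O*-sulfotransferase was at 8.82 and 8.67 on the controls, against 9.29 and 8.82 on the Gak-KO arrays, with *Z*-ratios of 1.43 and 0.55 and a mean change of 0.31 ± 0.13 (SE). The Gak-KO 2 signal did not exceed that of control 1, so the groups overlapped at this point. *Hs6st2*, a second 6-*O*-sulfotransferase, went beyond the limit downward in pair 2 (*Z*-ratio -2.28) and upward, within the limit, in pair 1 (1.56). Its log2 signals were low, 3.27 and 4.03 on the controls and 3.72 and 3.47 on the Gak-KO arrays, under the 30th percentile of all genes, and the mean change was -0.06 ± 0.30 (SE). *Hs2st1*, the 2-*O*-sulfotransferase, changed by -0.34 and 0.27, *Glce*, the C5-epimerase, by -0.08 and 0.03, and *Hs3st1*, a 3-*O*-sulfotransferase, by 0.00 and 0.24.

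The 2 extracellular sulfatases, which remove 6-*O*-sulfate groups from finished chains, had mean changes of opposite sign. *Sulf1* was at 6.04 and 7.37 on the controls, against 5.67 and 7.08 on the Gak-KO arrays. It was lower by a similar amount in both pairs, with *Z*-ratios of -1.20 and -1.22, and its mean change of -0.32 ± 0.10 (SE, 95% CI -0.62 to -0.03) was the lowest of all members, with an unadjusted p of 0.0405 and an adjusted p of 0.833 in limma. *Sulf2* was at 7.03 and 8.10 on the controls, against 7.76 and 8.14 on the Gak-KO arrays. The *Sulf2* signal was higher by 0.73 in pair 1 (*Z*-ratio 2.37) and by 0.04 in pair 2 (0.11), which gave a mean of 0.39 ± 0.21 (SE, 95% CI -0.27 to 1.04) and an adjusted p of 0.833 in limma. For both genes the groups overlapped, because the controls differed by 1.33 for *Sulf1* and by 1.07 for *Sulf2*. Heparanase (*Hpse*), which cleaves the chains, was at 3.69 and 3.63 on the controls, against 4.21 and 3.40 on the Gak-KO arrays, changes of 0.52 and -0.23. Its mean signal was low, at percentile 32.3 of all genes.

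Biglycan stood apart among the small leucine-rich proteoglycans. The log2 signals of *Bgn* were 9.76 and 9.88 in the controls, 10.77 in Gak-KO 1 and 10.52 in Gak-KO 2, so the controls lay within 0.12 of each other and both Gak-KO arrays were above them. The change was 1.01 in pair 1 and 0.64 in pair 2, or 2.01-fold and 1.56-fold, with *Z*-ratios of 3.20 and 2.50. The mean change was 0.82 ± 0.14 (SE, 95% CI 0.39 to 1.25), or 1.77-fold, with an unadjusted p of 0.00793 and an adjusted p of 0.833 in limma. *Bgn* ranked 80th among the 22180 genes by mean increase, and its mean signal was at the 98.8th percentile. A second *Bgn* probe set, of lower signal, was at 6.66 and 6.90 on the controls, against 7.21 and 6.70 on the Gak-KO arrays, so that it was higher by 0.55 in pair 1 and lower in pair 2 (-0.20). With the mean of both probe sets the *Z*-ratios were 2.51 and 0.84 and the call was lost.

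Decorin (*Dcn*), which binds collagen fibrils and is the closest relative of biglycan, was higher in both pairs without overlap of the groups, and was not called. It was at 6.00 and 5.97 on the controls, against 6.23 and 6.45 on the Gak-KO arrays, with *Z*-ratios of 0.74 and 1.92 and a mean change of 0.35 ± 0.12 (SE, 95% CI -0.01 to 0.71). The collagen-binding *Prelp* was split between the pairs, at 6.68 and 5.56 on the controls, against 6.33 and 6.04 on the Gak-KO arrays, with *Z*-ratios of -1.19 and 1.95. Its controls differed by -1.12 (control 2 minus control 1), which exceeds either change. A second *Prelp* probe set, of lower signal, was lower in both pairs (mean -0.28). *Fmod* (fibromodulin) had changes of 0.02 and 0.36, a mean of 0.19 ± 0.13 (SE), although its second probe set gave a mean of -0.34. *Lum* (lumican) and *Vcan* (versican) had signals under the 30th percentile of all genes and mean changes of 0.13 and -0.04, and *Ogn* (osteoglycin) one of 0.00. Versican is not a small leucine-rich proteoglycan and was only grouped with these genes. The median of the mean changes of the 7 genes of this class, *Bgn* and *Vcan* among them, was 0.13.

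The 4 measured genes of hyaluronan metabolism did not move together, with a median mean change of 0.01. *Hyal2*, a hyaluronidase anchored at the cell surface, was higher in both pairs, at 7.26 and 7.11 on the controls, against 7.44 and 7.22 on the Gak-KO arrays, with a mean change of 0.15 ± 0.10 (SE). Of the synthases, *Has2* had a mean signal under the 30th percentile of all genes, and *Has1* and *Has3* were not far above it (30.3 and 37.7). *Has2* was lower in both pairs, at 3.60 and 3.29 on the controls, against 3.36 and 3.26 on the Gak-KO arrays, and its mean change of -0.14 ± 0.11 (SE) was the lowest of a member after *Sulf1*. *Has3* was at 3.81 and 4.18 on the controls, against 4.29 and 3.90 on the Gak-KO arrays, changes of 0.48 and -0.28, and *Has1* changed by 0.07 and -0.21.

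**Figure D3:**
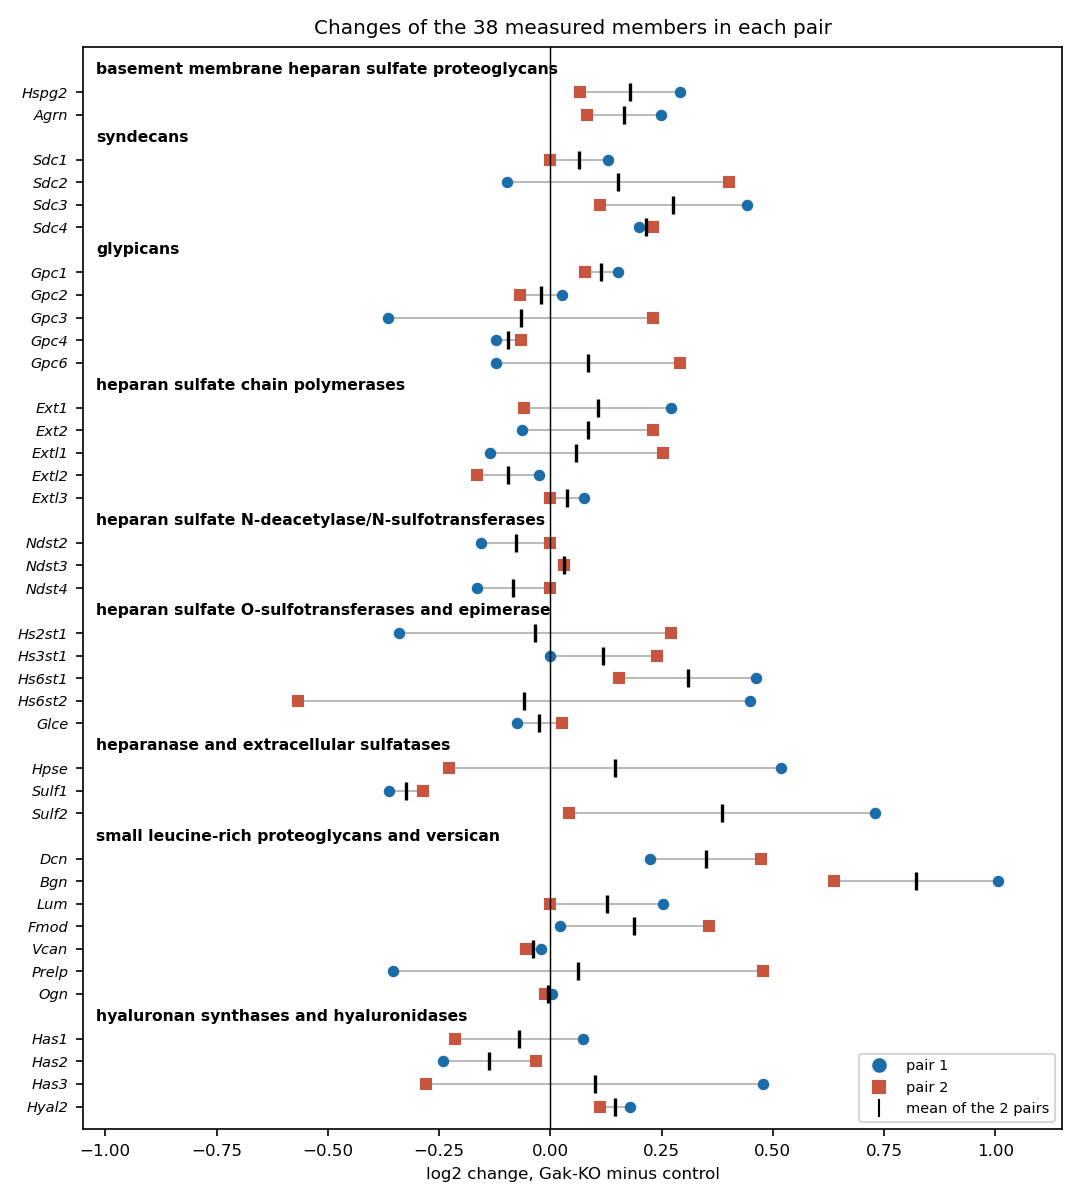
Log2 changes, Gak-KO minus control (x axis), of the 38 members by class, with pair 1, pair 2 and their mean marked separately. *Bgn* has the highest mean (0.82) and *Sulf1* the lowest (-0.32), and 31 means lie within 0.2 of 0.

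Arrays of different numbers differed widely for some members. Whether signals of different numbers share a common scale was not tested, which limits these differences and the counts of overlap between groups. For 27 of 38 members the 2 controls differed by more than the mean change between groups, as they did for 16814 of 22180 genes. The median size of the difference between controls was 0.206 for members and 0.273 for all genes, and it was over 1 for *Sulf1*, *Sulf2*, *Hspg2* and *Prelp*. A difference that the arrays of one number share is absent from the change within a pair, as for *Sulf1*, whose controls differed by 1.33 and whose changes were -0.36 and -0.29. All 8 measured podocyte markers were higher on control 2 than on control 1, by a median of 0.93. *Sulf1*, *Sulf2* and *Hspg2* were higher on control 2 as well, whereas *Prelp* was lower, and whether podocyte content had a part in these differences was not tested.

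The rest of the glycosaminoglycan pathway showed no gene that passed the criterion. Of 83 further genes in 7 lists, 77 were measured, 0 were called by the *Z*-ratio in both pairs (against 0.509% of all genes higher and 0.234% lower), and 7 were beyond the limit in 1 pair only (against 9.18% of all genes). Of these 77 genes, 10 were higher in both pairs (against 22.3% of all genes) and 24 lower in both (against 24.3%), and the median of the mean changes was -0.02. In limma 0 had an adjusted p under 0.05, and 2 had an unadjusted p under 0.05, against 5.43% of all genes.

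Single genes of the pathway reached the limit in 1 pair. *Xylt2*, a xylosyltransferase that starts the linkage to the core protein, changed by 0.86 and -0.01, and *B3galt6*, which adds the second galactose of that linkage, by -0.85 and -0.04. Both changes were thus carried by pair 1. *Cd44*, a hyaluronan receptor, was at 4.1 and 4.47 on the controls, against 4.98 and 4.76 on the Gak-KO arrays, with *Z*-ratios of 2.97 and 1.20 and a mean change of 0.59 ± 0.19 (SE), the largest of the 77. *Hmmr*, a hyaluronan receptor also found at the mitotic spindle, had *Z*-ratios of -0.72 and 3.98. *Chsy3*, a chondroitin sulfate synthase, had *Z*-ratios of 1.52 and -2.08, and the core proteins *Aspn* and *Spock3* had -0.76 and 2.12 and -2.12 and 1.53. These 4 genes moved in opposite directions in the 2 pairs. The mean signal of *Aspn* was low, at percentile 20.5 of all genes. The mean change of *Chsy3* was -0.02, and 0.19 with the mean of its probe sets.

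*Csgalnact1*, which commits a chain to chondroitin sulfate, was within the limit and steady, at 5.31 and 5.55 on the controls, against 5.75 and 5.93 on the Gak-KO arrays, with *Z*-ratios of 1.49 and 1.56 and a mean change of 0.41 ± 0.10 (SE). At the other end of the chondroitin and dermatan sulfate list, *Chst11*, a chondroitin 4-*O*-sulfotransferase, had a mean change of -0.30 ± 0.13 (SE). In the list of other heparan sulfate sulfotransferases the extremes were *Hs3st2* (0.11 ± 0.14) and *Hs6st3* (-0.17 ± 0.12). Among the genes that supply nucleotide sugars and sulfate they were *Uxs1*, which makes UDP-xylose (0.15 ± 0.12), and *Ugp2*, which makes UDP-glucose (-0.22 ± 0.10). For lysosomal degradation they were *Galns* (0.11 ± 0.12) and the iduronidase gene *Idua* (-0.27 ± 0.10), for other core proteins *Col15a1* (0.13 ± 0.22) and *Omd* (-0.25 ± 0.13), and the lowest hyaluronan receptor gene was *Layn* (-0.23 ± 0.15, all SE). None of these was beyond the limit in either pair. *Hs3st2* and *Omd* had mean signals under the 30th percentile of all genes.

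**Figure D4:**
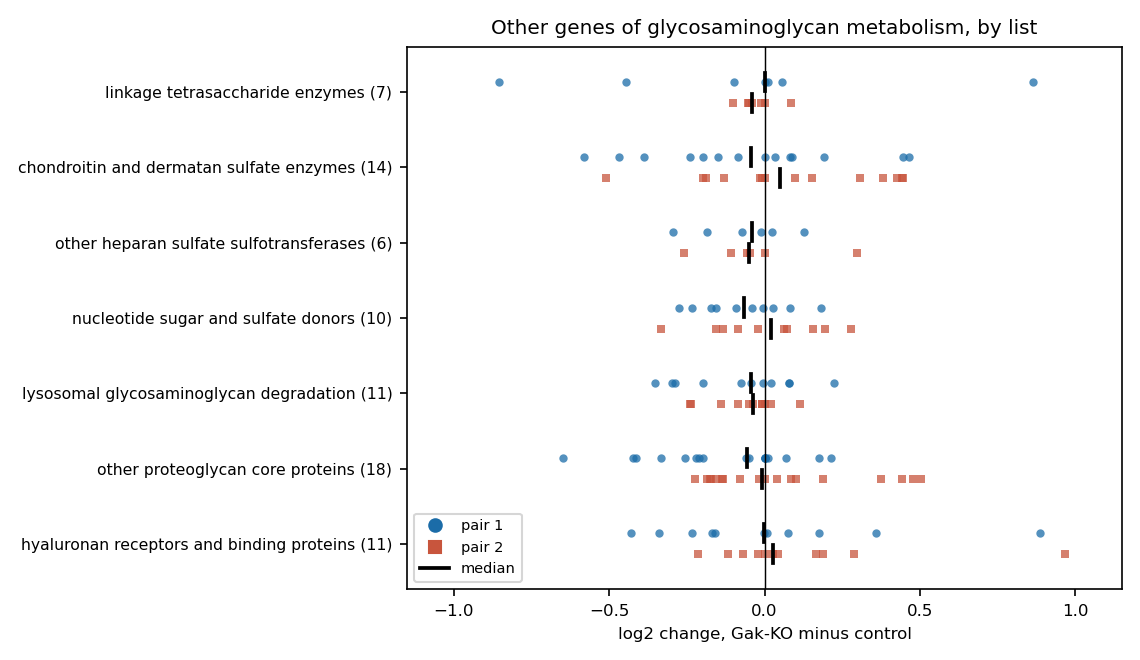
Log2 changes, Gak-KO minus control (x axis), of the 77 other measured genes in 7 lists, with pair 1 as circles, pair 2 as squares and the median of each as a vertical line. The medians lie close to 0 in every list, and the outlying points are *Xylt2*, *B3galt6* and *Cd44* in pair 1 and *Hmmr* in pair 2.

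Some marker genes of other glomerular and cortical cells moved beside *Bgn*. In whole glomeruli more cells of a type and more RNA per cell cannot be told apart. Of 10 markers of mesangium and smooth muscle, 7 were higher in both pairs (against 22.3% of all genes), 1 was lower in both and 2 moved in opposite directions. Both Gak-KO arrays lay above both controls for 5 of them (against 8.8% of all genes), and 2 were called higher (against 0.509%), *Mcam* (0.75 ± 0.10, SE) and *Tagln* (0.95 ± 0.21, SE). Their summed linear signal was 2255 and 2650 on the controls and 3024 and 3295 on the Gak-KO arrays. Of 10 macrophage markers, 5 were higher in both pairs, 1 was lower in both and 4 moved in opposite directions. Against the same shares of all genes, 2 of them were called higher, *Cd68* (0.71 ± 0.11, SE) and *Mpeg1* (0.99 ± 0.14, SE), with sums of 279.8 and 304.4 on the controls and 316.1 and 446.4 on the Gak-KO arrays. *Mcam* and *Mpeg1* are in the study's supplementary gene list, whereas *Tagln* and *Cd68* are not. Of 10 interstitial fibroblast markers none was called, and the sums overlapped, at 466.4 and 575.3 on the controls and 550.3 and 563.6 on the Gak-KO arrays. Of 8 measured podocyte markers none was called, with sums of 4618 and 7159 on the controls and 4030 and 8019 on the Gak-KO arrays. Of 10 markers of glomerular endothelium none was called, 3 were higher in both pairs (against 22.3% of all genes) and 7 moved in opposite directions. Of 8 markers of parietal epithelium none was called, 2 were higher in both pairs, 1 was lower in both and 5 moved in opposite directions. Of 10 proximal tubule markers, 0 were higher in both pairs, 7 were lower in both (against 24.3% of all genes) and 3 moved in opposite directions, and *Kap* was called lower (-1.78 ± 0.32, SE). Of 8 markers of the thick limb and distal tubule, 2 were higher in both pairs, 4 were lower in both and 2 moved in opposite directions. *Slc12a1* was called lower (-0.62 ± 0.10, SE), against 0.234% of all genes. Both Gak-KO arrays also lay above both controls for 3 macrophage, 2 parietal, 1 endothelial and 1 fibroblast marker (against 8.8% of all genes). They lay below both for 4 thick limb and distal, 2 proximal tubule and 1 fibroblast marker (against 8.22%). No podocyte marker was without overlap. *Bgn* is X-linked, and *Xist* changed by -0.09 and 0.66 and *Uty* by 0.94 and -0.43 in pairs 1 and 2. The part of cell content, tubular RNA and sex in the change of *Bgn* was not tested.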

How the data were processed

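Glomerular RNA was measured on 4 arrays. The authors deposited log2 signals made by RMA per the processing notes, which also name limma; versions are not given in the sources used here. RMA corrects the background, normalizes the arrays and summarizes probes, and was not repeated. The methods name another array type than that of the probe set identifiers. Of 41345 probe sets, 23521 carried 1 gene symbol in the platform annotation, 1820 several and 16004 none. The 22180 genes were each taken by the probe set with the highest mean signal. The Entrez identifiers of all 38 measured members matched RefSeq. Levels of different probe sets were compared to choose 1 per gene and to give signal percentiles, and were summed over marker lists. They were not compared otherwise.

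Arrays were paired by number, following a supplementary table of the study that gives each of 2 batches its own *Z*-ratio. Arrays of one number deviated together from the means of their groups (correlation 0.694 across genes), and exactly equal values occurred for 1421 probe sets in pair 1, 3735 in pair 2 and 0 across numbers. The median over all probe sets was 4.28 (control) and 4.32 (Gak-KO) for number 1, and 4.13 and 4.14 for number 2. Whether the authors normalized the 4 arrays together or each number apart was not tested. Values compared across numbers, such as differences between controls and overlap of the groups, depend on this. That the array numbers follow the 2 batches of the study was assumed. The *Z*-ratios found here differ from those the study printed for some genes, such as *Egf* and *Umod*. Array number and sex label coincide and cannot be told apart. *Z*-ratios followed the usual definition, and their limit (about 2.0 after rounding) was that of the methods. Log2 changes with SE were fitted in R 4.3.3 by limma 3.58.1, blocked on the pair, leaving 1 residual degree of freedom plus 2.24 from moderation, and p values were adjusted by Benjamini-Hochberg over all genes. The number of arrays limits the precision. With the pair as a block, these p values rest on how far the changes of the 2 pairs differ, moderated over all genes. With pooled mice they do not measure the spread between mice. Procedures were tested on simulated data, and figures were drawn with matplotlib 3.10.9.

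The members and lists were chosen with earlier results of these data known. All measured members are named. By rule, array values were given for members called or beyond the limit in 1 pair and for the 5 largest mean changes in each direction, and the others were given by their mean change or the change of each pair. Array values of further members were added after their values were seen. Named from the other lists were the called genes, those beyond the limit in 1 pair, the extreme of each list in each direction, and *Col18a1*, added afterwards. Alternatives were no pairing, quantile normalization, centering, averaging a gene's probe sets, fitting every probe set, no low-signal genes (under the 30th percentile), a robust scale, a stricter limit (about 2.6), an intensity trend, the methods' t-test, and leaving out a pair or an array.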

Additional observations from a re-analysis of the deposited data

How the results depend on the processing

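*Bgn* kept its call under quantile normalization (*Z*-ratios 3.33 and 2.70), centering, a robust scale (4.1 and 3.55) and without low-signal genes (3.20 and 2.33). The count of members called higher was 0, the *Bgn* call being lost, with the mean of the probe sets of a gene, with all probe sets (2.25 and 1.84) and at the stricter limit of about 2.6. With 1 pair left out, 1 to 2 members were called higher (*Bgn* from each pair, and *Sulf2* from pair 1) and 0 to 1 lower (*Hs6st2* from pair 2), and of the other genes of the pathway 2 to 2 were called higher and 1 to 2 lower. Without the replicate block, which gives 1 *Z*-ratio on group means, 1 member was still called, and 3 other genes of the pathway were called higher (*Xylt2*, *Csgalnact1* and *Cd44*) and 1 lower (*B3galt6*), while calls over all genes went from 113 and 52 to 649 and 550. With all probe sets those were 32 and 9, with a robust scale 240 and 151, and at the stricter limit they were 48 and 11. The median change of the members, 0.074, was 0.064 after quantile normalization, 0.054 after centering, 0.048 with the mean of the probe sets and 0.085 without low-signal genes, and ranged from 0.024 to 0.12 with a pair or an array left out. The cause of these differences was not tested. In limma 0 members passed an adjusted p of 0.05 under any alternative, and the methods' t-test gave 1 member at its threshold before and 0 after Benjamini-Hochberg adjustment. With 1 array left out, where limma ignored the pairing, *Bgn* changed by 0.70 to 0.95, whereas *Sulf1* ran from -1.03 to 0.38, *Sulf2* from -0.15 to 0.92 and *Hspg2* from -0.32 to 0.68. The mean change turned its sign for 3 of 38 members with the mean of the probe sets (*Gpc1*, *Fmod* and *Prelp*) and for 1 after quantile normalization.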
